A study of Mus musculus with 8 samples.

Results

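The semaphorin, ephrin, Slit and netrin guidance genes were followed in descendants of hypertrophic chondrocytes, the swollen cartilage cells that border bone in the growth plate. Members were the genes whose symbol belongs to 1 of 11 families, the semaphorins (classes 3 to 7), plexins, neuropilins, ephrins A and B, Eph receptors A and B, Slits, Robos, netrins and Unc5 receptors. There were 67 such genes among 48490 in the deposited table. The 3 genotypes compared, LoF, GoF and WT, all carried Col10a1Cre and the reporter Rosa26-Tdtomato. LoF mice (loss of function) were also Ctnnb1Δ/Δ and lacked β-catenin, through which canonical Wnt signals reach genes, in the recombined cells. GoF mice (gain of function) were Ctnnb1-exon3 Δ/+, so that 1 allele lacks the exon through which the protein is targeted for breakdown. WT mice had neither change. The Cre follows Col10a1, which hypertrophic chondrocytes express, so any cell with a past of Col10a1 expression was marked. Each library was a pool of 70 red cells chosen by hand from the proximal tibia of pups 5 days old. There were 4 libraries of LoF and 2 each of GoF and WT. The labels do not say whether the libraries of a group came from separate mice, so p-values cover only how these libraries vary, and that variation may be technical.

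Guidance proteins steer the tips of growing axons and also cells outside the nervous system. Secreted class 3 semaphorins bind neuropilins, which pair with plexins to signal, while many membrane-bound semaphorins bind plexins directly. Ephrins sit on one cell and bind Eph receptors on its neighbour, and the ephrin-bearing cell can signal too. Slits bind Robo receptors, and netrin 1 binds Unc5 receptors and Dcc. In bone, Sema3a from the osteoblast lineage and Sema4d from osteoclasts are known regulators of bone formation, and ephrin B2 with EphB4 is known for signalling between osteoclasts and osteoblasts. Neuropilin 1 is also a co-receptor for vascular endothelial growth factor.

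Levels are FPKM, which scale fragments by gene length and library total and can be compared between genes. Read totals are not known. The step between low values put the relative depth of the libraries between 0.901 and 1.16 of WT library 2, and 12587 to 13944 genes were above 0. The targeted gene Ctnnb1 lay between 67.3 and 86.7 FPKM in the mutants and at 137 and 146 in WT. Neither mutant passed against WT for Ctnnb1 (adjusted p = 0.11 for LoF and 0.176 for GoF, limma). LoF and GoF overlapped, so its RNA level did not tell the mutants apart. The 7 hypertrophic chondrocyte markers, those of the label's cell type, summed to 3296 to 4970 FPKM in LoF, 1782 to 2373 in WT and 695 to 794 in GoF. Of them, 3 were higher and 1 lower in GoF than in LoF, 1 was lower in LoF than in WT and 1 lower in GoF than in WT. Panx3, Mef2c, Pth1r and Runx3 were above 0 in all 8 libraries, with Runx3 at most at 5.435. Ihh was at 0 in the 6 LoF and WT libraries and at 1.46 and 3.91 FPKM in GoF. Col10a1 was at 9.61 to 113.9 FPKM in LoF, 6.24 and 20.5 in WT, and 189.6 and 177.4 in GoF, while Mmp13 was at 3113 to 4784 in LoF, 2106 and 1514 in WT, and 10.95 and 86.7 in GoF. Markers of skeletal cell states thus differed between the genotypes. The 7 osteoblast markers summed to 9584 to 12587 FPKM in LoF, 14254 to 15325 in WT and 15802 to 18040 in GoF. Of them, 5 were higher and 1 lower in GoF than in LoF, and 1 was higher and 2 lower in LoF than in WT. Most of the LoF sum was Spp1, at 7823 to 11845 FPKM against 4236 and 3450 in WT and 1200 and 1940.5 in GoF. Col1a1 went the other way, at 244 to 821 FPKM in LoF, 5470 and 6681 in WT, and 6090 and 4626 in GoF. The 6 chondrocyte markers summed to 20.5 to 80.8 FPKM in LoF, 15.3 to 17.9 in WT and 112.5 to 196 in GoF, with 1 higher in GoF than in LoF and 1 higher than in WT. The part of these shifts in the guidance results was not tested. LoF library 3 stood apart in endothelial transcripts. Its 9 endothelial markers summed to 107.6 FPKM, with Emcn at 38.5 and Pecam1 at 9.40, against at most 13.7 in any other library. The 7 pericyte and smooth muscle markers summed to 38.2 to 69.7 FPKM in LoF, 28.5 to 35.0 in WT and 3.94 to 5.48 in GoF, with Myh11 at 0 throughout and 2 of 6 tested markers lower in GoF than in LoF. The 8 myeloid and other white blood cell markers summed to 31.4 to 82.4 FPKM in LoF, 23.8 to 32.2 in WT and 9.51 to 15.1 in GoF, with Itgam at 0, and 1 of 5 tested markers was lower in GoF than in LoF. Erythroid transcripts followed another order, as 6 markers summed to 76.0 to 2274 FPKM in LoF, 2557 to 10567 in WT and 895 to 1838 in GoF, with 1 of 5 tested markers lower in GoF than in WT. The 7 osteoclast markers summed to 59.0 to 73.0 FPKM in LoF, 63.8 to 72.4 in WT and 96.6 to 98.8 in GoF, with 1 of 2 tested markers higher in GoF than in LoF and Calcr, Dcstamp and Ocstamp at 0 throughout. Neuronal and glial markers stayed at or below 9.65 FPKM in sum, with Snap25, Nefl and Sox10 at 0. Y-linked transcripts were present in LoF libraries 2 and 3 and in the GoF pair, and Xist in the other 4 libraries, so sex and genotype coincide between GoF and WT. In pooled cells, fewer cells expressing a gene and less RNA per cell cannot be told apart.

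A part of the guidance repertoire was in use in these cells. Of the 67 genes, 43 reached 1 FPKM in at least 2 of 8 libraries and were tested. Another 6 genes (Epha6, Robo4, Sema4f, Sema5b, Sema6b and Slit1) were listed at 0 in every library, and 13 had values above 0 but never reached 1. Robo4, the Robo receptor of endothelium, was among those at 0 also in LoF library 3. A group mean of at least 10 FPKM was reached by 15 genes. In WT the order was led by the neuropilin Nrp2 at 37.7 ± 2.37 FPKM (SD, n = 2), the ligand Slit2 at 35.7 ± 19.3, Nrp1 at 30.7 ± 8.53 and the plexin Plxnb2 at 24.5 ± 0.789, and no neighbours among these 4 differed beyond their spread. Robo2, Sema3b, Slit3, Efna1, Efnb1, Unc5b and Sema3a followed, with WT means between 10.4 and 15.4 FPKM. In LoF the first place was held by Nrp1 at 60.7 ± 5.43 FPKM (SD, n = 4) and in GoF by the secreted semaphorin Sema3d at 21.9 ± 1.20 (SD, n = 2). Values of all tested members by library are drawn in the heat map.

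**Figure D1:**
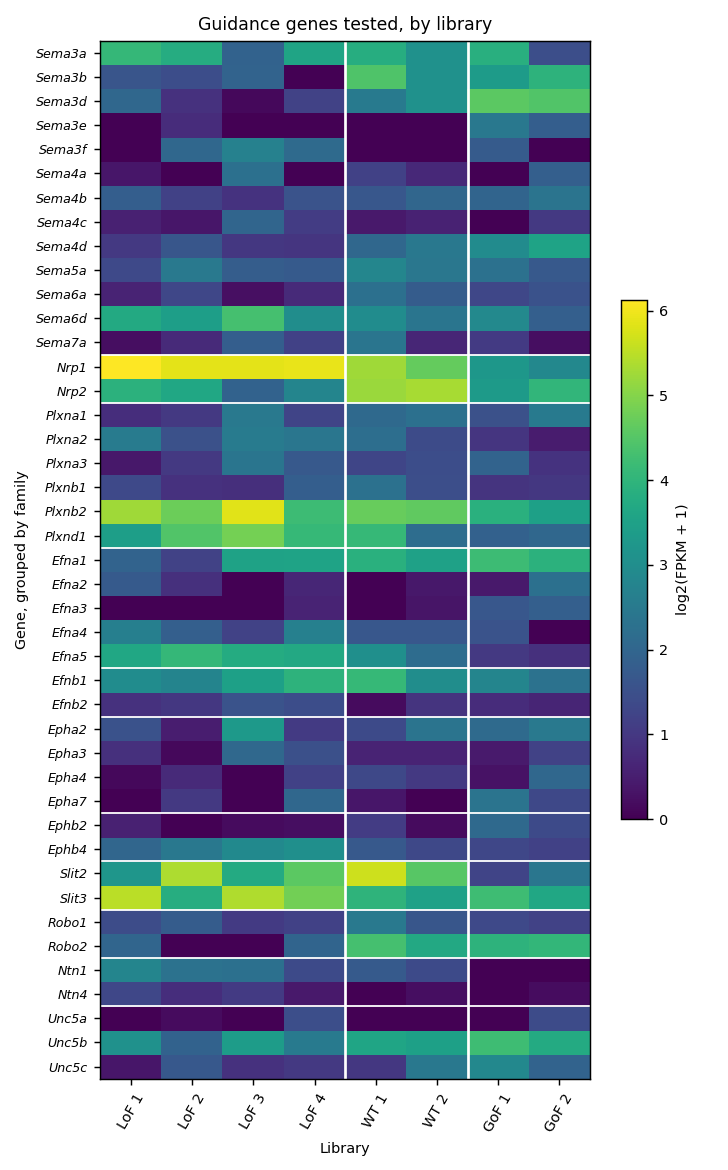
Level of the 43 tested guidance genes (rows, grouped by family) in the 8 libraries (columns), as log2(FPKM + 1). Nrp1 is brightest in the 4 LoF libraries, Sema3d is bright in the 2 GoF libraries, and Robo2 is dark in the LoF libraries.

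GoF against LoF sets stabilised against deleted β-catenin. In GoF, 6 genes were higher (Sema3d, Robo2, Sema3b, Sema4d, Sema3e and Efna3) and 5 were lower (Nrp1, Efna5, Slit2, Plxnd1 and Ntn1). On the log2(FPKM + 1) scale the largest step up was Sema3d, 21.9 FPKM in GoF against 1.34 in LoF, and the largest step down was Nrp1, 7.34 against 60.7. Of the 6 higher genes, 4 encode semaphorins, and the lower ones include the receptors Nrp1 and Plxnd1. These 11 were 25.6% of the 43 genes tested, where 11.6% of all 12888 genes tested passed the same rule (limma on log2(FPKM + 1), Benjamini-Hochberg adjusted p under 0.05). By direction, 5.97% of all tested genes were higher and 5.68% lower. At an unadjusted p under 0.05 there were 19 of 43 members, where 25.2% of all tested genes passed. Libraries of the 2 groups did not overlap in 22 of 43 members, or 51.2%, against 33.5% of all tested genes. The median log2 fold change of the members was 0.04, and -0.17 over all tested genes. Sema3e and Efna3 passed the filter on low values only through the GoF libraries, and Efnb2 and Ntn4 only through LoF. Ntn1 and Plxna2 passed it through LoF and WT but no GoF library, and Ephb2 through GoF and WT but no LoF library. Their differences, and their place in these counts and shares, are thus partly set by the filter. Apart from Sema3e and Efna3, the higher genes were Sema3d, Robo2, Sema3b and Sema4d. The count of 11 was 10 without LoF library 3, 7 without LoF library 2, 2 without GoF library 1 and 3 without GoF library 2. It was 6 with sex as a covariate. With a pseudocount of 0.1 it was 8, 3 higher and 5 lower, as Robo2, Sema3b and Efna3 lost their calls (adjusted p = 0.0844, 0.122 and 0.0645, limma).

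**Figure D2:**
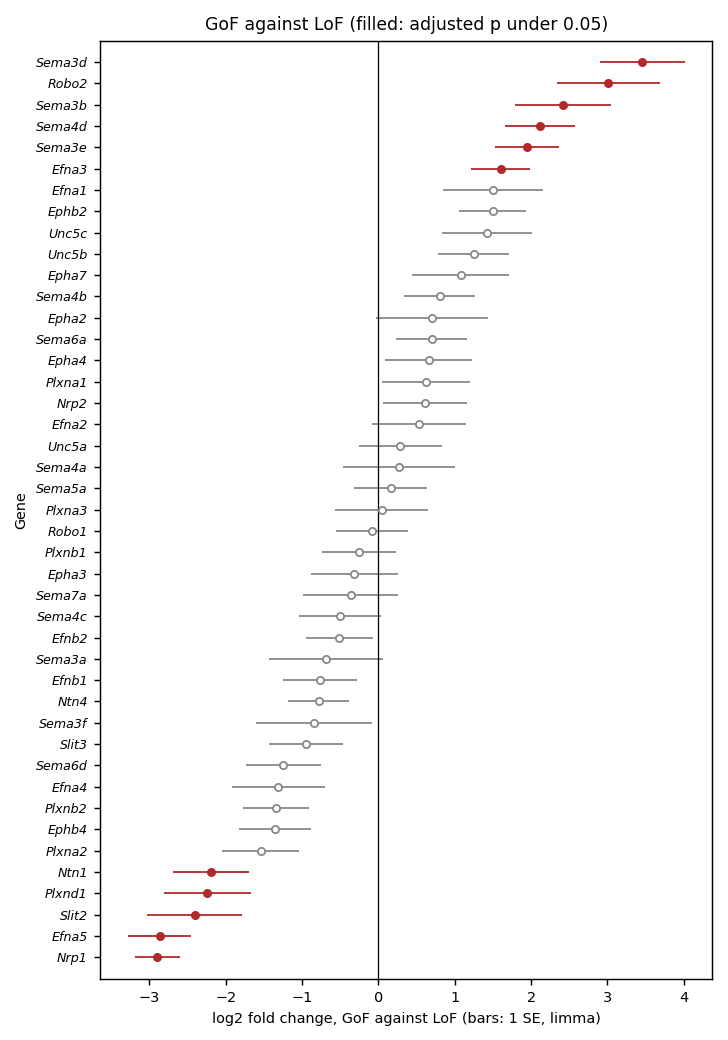
log2 fold change of GoF against LoF for each of the 43 tested guidance genes (points, with bars of 1 SE from limma), where filled points have an adjusted p under 0.05. To the right lie 6 filled points, led by Sema3d at 3.46, and to the left 5, ending with Nrp1 at -2.90.

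Promoters of these 11 genes were searched for the core letters bound by TCF/LEF, the DNA-binding partners of β-catenin, and by RUNX, the osteoblast factor family. RefSeq windows (GRCm38.p6) covering 250 bases before a start site were given for 9 of the 11 genes, Ntn1 and Sema3b being without one. Neither CTTTGAT nor CTTTGTT was found on either strand in any of the 9, while 9.21% of 27025 genes in the promoter table held one of them. The RUNX letters ACCACA, on either strand, were found in Sema4d and Efna3 and in 15.9% of all genes. The stretches around these matches are shown because they were the only matches among the 9 genes with a window, with the RUNX letters in capitals (TGTGGT is the reverse complement of ACCACA). The Sema4d stretch is chr13:51748910-51748965 and the Efna3 stretch is chr3:89321774-89321829, both on the minus strand and written 5′ to 3′ along the gene.
Sema4d: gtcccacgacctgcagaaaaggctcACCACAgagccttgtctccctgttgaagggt
Efna3: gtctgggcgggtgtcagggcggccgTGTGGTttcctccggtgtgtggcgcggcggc
A match is a run of letters and not a binding site, and genes with several start sites had several windows.

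Among the semaphorins, the ligands of the system, 13 of 20 genes were tested and 4 were higher in GoF than in LoF, with 0 lower. Of all tested genes, 5.97% were higher and 5.68% lower. The 4 include Sema3e, which passed the filter on low values only through the GoF libraries. Sema3d (ENSMUSG00000040254.11, mm10 chromosome 5, 12383385 to 12588948), a secreted class 3 ligand, stood at 22.8 and 21.1 FPKM in GoF, 4.66 and 7.62 in WT, and 3.11, 0.818, 0.0990 and 1.31 in LoF libraries 1 to 4. Every GoF library was above both WT libraries, and every LoF library below them. GoF was 16.4-fold above LoF (log2 fold change 3.46, SE 0.56, adjusted p = 0.00357, limma). Without either GoF library the call ended (adjusted p = 0.0745 without library 1 and 0.0631 without library 2, limma).

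Sema4d (ENSMUSG00000021451.15, mm10 chromosome 13, 51701246 to 51793747), a membrane-bound ligand of plexin B1, was at 6.80 and 10.8 FPKM in GoF, 3.14 and 4.44 in WT, and 1.04, 2.09, 1.01 and 0.917 in LoF libraries 1 to 4. The 3 groups did not overlap, and GoF was 6.96-fold above LoF (log2 fold change 2.11, SE 0.46, adjusted p = 0.0158, limma). Of the 7 osteoclast markers, Acp5 was also highest in GoF, at 22.3 and 17.6 FPKM against 1.08 to 6.99 in the other libraries. Ctsk was at 76.5 and 77.8 FPKM in GoF and at 53.0 to 69.5 in the others. Calcr, Dcstamp and Ocstamp were at 0 throughout. Atp6v0d2 was highest in LoF library 2, at 0.874 FPKM, and Oscar was above 0 only in GoF library 2, at 0.998. The part of osteoclast RNA in the Sema4d level was not tested. Sema3b, a secreted ligand, was at 9.35 and 14.7 FPKM in GoF, 20.8 and 7.50 in WT, and 2.07, 1.71, 2.85 and 0 in LoF. Here GoF and WT overlapped, and the LoF libraries lay below both. GoF was 7.25-fold above LoF (log2 fold change 2.42, SE 0.63, adjusted p = 0.0338, limma). Sema3e, a secreted ligand that binds plexin D1 directly, was at 4.50 and 2.54 FPKM in GoF, at 0 in WT, and at 0 in LoF except for 0.700 in library 2. Its log2 fold change of GoF against LoF was 1.95 (SE 0.42, adjusted p = 0.0149, limma). These calls rested on few libraries. Without GoF library 1, the adjusted p (limma) was 0.0696 for Sema4d, 0.195 for Sema3b and 0.0833 for Sema3e. Without GoF library 2 it was 0.127 for Sema4d and 0.265 for Sema3b, and without LoF library 2 it was 0.0578 for Sema3b. With sex as a covariate all 3 calls ended, at adjusted p = 0.062 for Sema4d, 0.132 for Sema3b and 0.0576 for Sema3e (limma).

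The other semaphorins did not pass in this comparison. Sema3a, the secreted semaphorin best known in bone, was at 13.4 and 1.76 FPKM in the GoF libraries, 13.2 and 7.55 in WT, and 16.0, 13.0, 2.79 and 10.9 in LoF. The groups overlapped, and the GoF libraries spanned most of the range of the set. The log2 fold change was -0.69 (SE 0.75, adjusted p = 0.617, limma). Sema6d, a membrane-bound ligand of plexin A1, led the LoF semaphorins at 11.9 ± 5.03 FPKM (SD, n = 4), with its highest value of 18.8 in library 3, and averaged 5.53 ± 1.87 in WT and 4.49 ± 2.68 in GoF (SD, n = 2 each). The LoF libraries lay above both other groups, at an adjusted p of 0.144 against GoF (limma). Sema3f, which prefers neuropilin 2, was at 0, 3.13, 5.498 and 3.33 FPKM in LoF, at 0 in WT, and at 2.37 and 0 in GoF, and did not pass (adjusted p = 0.54, limma). Sema7a, a lipid-anchored ligand, ranged from 0.166 to 4.18 FPKM, with both extremes outside LoF, and did not pass (adjusted p = 0.764, limma). Summed over the 20 semaphorins, FPKM was 38.8 ± 5.65 in LoF (SD, n = 4), 54.9 ± 16.6 in WT and 71.0 ± 6.16 in GoF (SD, n = 2 each). Sema3d made up 30.9% of the GoF sum, while Sema6d made up 30.8% of the LoF sum and Sema3b 25.8% of the WT sum.

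**Figure D3:**
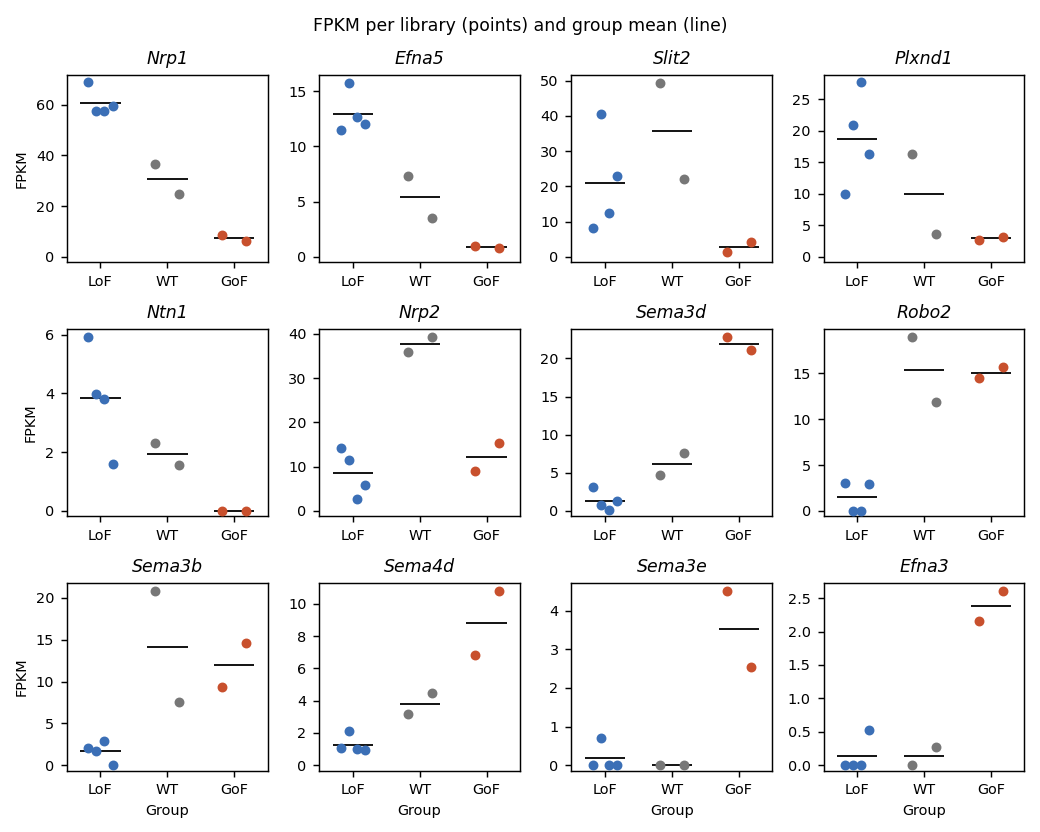
FPKM of 12 guidance genes in each library (points) with the group mean (line), for LoF (4 libraries), WT and GoF (2 each). Nrp1 and Efna5 step down from LoF through WT to GoF, Sema3d and Sema4d step up, and Nrp2 is high in the 2 WT libraries only.

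The neuropilins, the binding receptors for class 3 semaphorins, each had their own order over the groups. Nrp1 (ENSMUSG00000025810.9, mm10 chromosome 8, 128358604 to 128503363) was at 68.8, 57.5, 57.3 and 59.4 FPKM in LoF libraries 1 to 4, at 36.8 and 24.7 in WT, and at 8.44 and 6.25 in GoF. The 3 groups did not overlap, and LoF was 8.27-fold above GoF (log2 fold change of GoF against LoF -2.90, SE 0.30, adjusted p = 0.000292, limma). The value without LoF library 3, the one with endothelial transcripts, was -2.92 (adjusted p = 0.000972, limma), and the call remained under all 17 alternatives (adjusted p up to 0.015). The pericyte and smooth muscle markers, summed, also had the order LoF, WT, GoF without overlap, though no single marker did. Acta2 was at 7.85 to 54.3 FPKM in LoF, 18.8 and 14.4 in WT, and 0 and 0.336 in GoF. Cspg4 was at 2.70 to 5.68 FPKM in LoF, 7.59 and 1.63 in WT, and 3.01 and 3.22 in GoF. The part of such RNA in the level of Nrp1 and other members with this order was not tested. Nrp2 (ENSMUSG00000025969.15, mm10 chromosome 1, 62703285 to 62818695) followed another order. It was at 36.0 and 39.3 FPKM in WT, at 14.2, 11.6, 2.77 and 5.86 in LoF, and at 9.03 and 15.3 in GoF. Every mutant library was below both WT libraries and the mutants overlapped each other. The differences did not pass the test (LoF against WT, log2 fold change -2.20, SE 0.55, adjusted p = 0.0971, and GoF against WT, -1.60, SE 0.63, adjusted p = 0.274, limma). The ratio of Nrp1 to Nrp2 within a library was therefore 4.85 to 20.7 in LoF, 0.628 and 1.02 in WT, and 0.408 and 0.935 in GoF. Their summed level was 69.4 ± 9.78 FPKM in LoF (SD, n = 4), 68.4 ± 6.16 in WT and 19.5 ± 2.88 in GoF (SD, n = 2 each).

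Plexins, the signalling receptors for semaphorins, were represented by 6 tested genes of 9. Plxnd1 (ENSMUSG00000030123.15, mm10 chromosome 6, 115954811 to 115995005), the receptor of Sema3e and best known in endothelium, was at 9.89, 20.9, 27.6 and 16.2 FPKM in LoF libraries 1 to 4, 16.3 and 3.57 in WT, and 2.74 and 3.10 in GoF. GoF lay below all other libraries, and WT library 1 lay within the LoF range and WT library 2 below it. The log2 fold change of GoF against LoF was -2.24 (SE 0.57, adjusted p = 0.031, limma). Its highest value was in LoF library 3, which also had the highest endothelial marker sum, and the part of endothelial RNA in the LoF level was not tested. Without that library the adjusted p was 0.0583, and it was 0.068 without LoF library 2, 0.0548 without LoF library 4, 0.253 without GoF library 1 and 0.187 without GoF library 2 (limma). Plxnb2, a receptor of class 4 semaphorins, was the most abundant plexin in all 3 groups, at 34.3 ± 17.0 FPKM in LoF (SD, n = 4), 24.5 ± 0.789 in WT and 11.9 ± 2.54 in GoF (SD, n = 2 each). The GoF libraries were below all others, but the difference from LoF did not pass (log2 fold change -1.34, SE 0.44, adjusted p = 0.0794, limma) except without LoF library 4 (adjusted p = 0.0325). Plxna2, one of the class A partners of neuropilins, averaged 3.96 ± 1.42 FPKM in LoF (SD, n = 4) and 0.660 ± 0.391 in GoF (SD, n = 2) and did not pass (adjusted p = 0.0827, limma). Plxna1 and Plxnb1, the latter the receptor of Sema4d, did not pass, with log2 fold changes of 0.63 (SE 0.58, adjusted p = 0.548) and -0.25 (SE 0.49, adjusted p = 0.79, limma). The 9 plexins summed to 62.7 ± 24.6 FPKM in LoF (SD, n = 4), 45.1 ± 12.03 in WT and 21.6 ± 2.10 in GoF (SD, n = 2 each).

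Of the ephrin-A ligands, lipid-anchored partners of EphA receptors, all 5 were tested, and Efna5 was lower and Efna3 higher in GoF than in LoF. Efna5 (ENSMUSG00000048915.12, mm10 chromosome 17, 62604184 to 62881317) was at 11.5, 15.8, 12.7 and 12.002 FPKM in LoF libraries 1 to 4, 7.33 and 3.52 in WT, and 1.02 and 0.802 in GoF. The groups did not overlap, and LoF was 14.3-fold above GoF (log2 fold change of GoF against LoF -2.86, SE 0.42, adjusted p = 0.00211, limma), a call that remained under all 17 alternatives (adjusted p up to 0.0392). Efna3 was at 2.15 and 2.60 FPKM in GoF, 0 and 0.274 in WT, and 0 in LoF except for 0.524 in library 4. Its log2 fold change of GoF against LoF was 1.60 (SE 0.39, adjusted p = 0.0251, limma). Efna3 passed the filter on low values only through the GoF libraries, so this difference is partly set by the filter. The Efna3 call ended without LoF library 1 or 2 (adjusted p = 0.0548 and 0.0595, limma) and without GoF library 1 or 2 (adjusted p = 0.0642 and 0.0794, limma). Efna1, the most abundant ephrin-A in WT and GoF, was at 17.3 and 14.3 FPKM in GoF, 13.9 and 10.4 in WT, and 2.85, 1.32, 10.6 and 10.8 in LoF. The LoF libraries thus fell into a low and a higher pair, and the difference between GoF and LoF did not pass (log2 fold change 1.502, SE 0.66, adjusted p = 0.184, limma). Within a library, the ratio of Efna1 to Efna5 was 17.1 and 17.9 in GoF, 1.90 and 2.96 in WT and 0.0838 to 0.902 in LoF, while the summed ephrin-A level was 24.1 ± 3.87 FPKM in LoF (SD, n = 4), 20.04 ± 4.79 in WT and 22.2 ± 0.908 in GoF (SD, n = 2 each). Efna2 ranged from 0 to 3.81 FPKM with no separation of GoF from LoF and did not pass (adjusted p = 0.638, limma).

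Ephrin-B ligands and their receptors were lower in level. Efnb1, on the X chromosome, was the main transmembrane ephrin at 9.40 ± 3.97 FPKM in LoF (SD, n = 4), 11.7 ± 6.54 in WT and 4.91 ± 1.38 in GoF (SD, n = 2 each), and did not pass (adjusted p = 0.375 for GoF against LoF, limma). Efnb2, the ephrin known from the signal between osteoclasts and osteoblasts, ranged from 0.127 to 1.98 FPKM in all libraries (adjusted p = 0.509, limma). Ephb4, its receptor, was at 3.07, 4.50, 6.48 and 7.25 FPKM in LoF, 2.28 and 1.49 in WT, and 1.47 and 1.29 in GoF. The groups did not overlap, but the difference between GoF and LoF did not pass (log2 fold change -1.36, SE 0.47, adjusted p = 0.0992, limma). Ephb2 went the other way, at 3.26 and 1.60 FPKM in GoF and at most 0.475 in LoF, and just missed the threshold (log2 fold change 1.495, SE 0.44, adjusted p = 0.0553, limma). It passed under median ratio scaling and quantile normalization (adjusted p = 0.0451 and 0.0436, limma). Of 9 EphA receptors, 4 were tested and 0 passed in GoF against LoF (limma, also 0 at an unadjusted p under 0.05). Epha2 averaged 3.05 ± 3.90 FPKM in LoF (SD, n = 4), a mean set by 8.82 in library 3 against 0.407 to 1.92 in the others, 2.84 ± 1.79 in WT and 3.94 ± 0.869 in GoF (SD, n = 2 each).

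The Slit ligands and Robo receptors showed different orders over the groups. Slit2 (ENSMUSG00000031558.15, mm10 chromosome 5, 47983138 to 48307733), a secreted repellent, was at 49.3 and 21.98 FPKM in WT, 8.27, 40.4, 12.5 and 22.9 in LoF libraries 1 to 4, and 1.37 and 4.28 in GoF. GoF was below all other libraries, while LoF and WT overlapped. The log2 fold change of GoF against LoF was -2.41 (SE 0.62, adjusted p = 0.0338, limma), and that of GoF against WT was -3.26 (SE 0.72, adjusted p = 0.0477, limma), 2 comparisons that share the GoF libraries. The first call ended in 11 of 17 alternatives and the second in 13 of 17. Among the left-out libraries, the adjusted p (limma) against LoF was 0.0622 without LoF library 2, 0.0705 without LoF library 4, 0.364 without GoF library 1 and 0.12 without GoF library 2, and it was 0.0536 and 0.0523 without WT libraries 1 and 2. Slit3 was at 44.1, 13.0, 41.2 and 27.3 FPKM in LoF, 14.9 and 10.4 in WT, and 17.6 and 11.5 in GoF, and did not pass (log2 fold change of GoF against LoF -0.95, SE 0.48, adjusted p = 0.258, limma). The summed Slit level was nearly the same in the 4 LoF libraries, 50.2 to 53.7 FPKM, although the ratio of Slit3 to Slit2 ran from 0.322 to 5.33 among them. In WT the sum was 64.2 and 32.4 FPKM and in GoF 18.9 and 15.8.

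Robo2 (ENSMUSG00000052516.17, mm10 chromosome 16, 73892306 to 74411825), a receptor for Slits, was at 14.4 and 15.6 FPKM in GoF and 18.9 and 11.9 in WT, and at 3.02, 0, 0 and 2.92 in LoF libraries 1 to 4. LoF lay below both other groups, which overlapped. GoF was 10.1-fold above LoF (log2 fold change 3.01, SE 0.68, adjusted p = 0.0185, limma). The difference of LoF from WT was of the same size but did not pass (log2 fold change -3.01, SE 0.68, adjusted p = 0.0701, limma). The 2 LoF libraries at 0 were those with Y-linked transcripts, and with sex as a covariate the log2 fold change of GoF against LoF was 4.00 (adjusted p = 0.00275, limma). Without GoF library 1 or 2 the call ended (adjusted p = 0.192 and 0.171, limma). Robo1 was at 1.07 to 2.43 FPKM in LoF, 4.56 and 2.13 in WT and 1.56 and 1.31 in GoF and did not pass (adjusted p = 0.935 for GoF against LoF, limma).

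**Figure D4:**
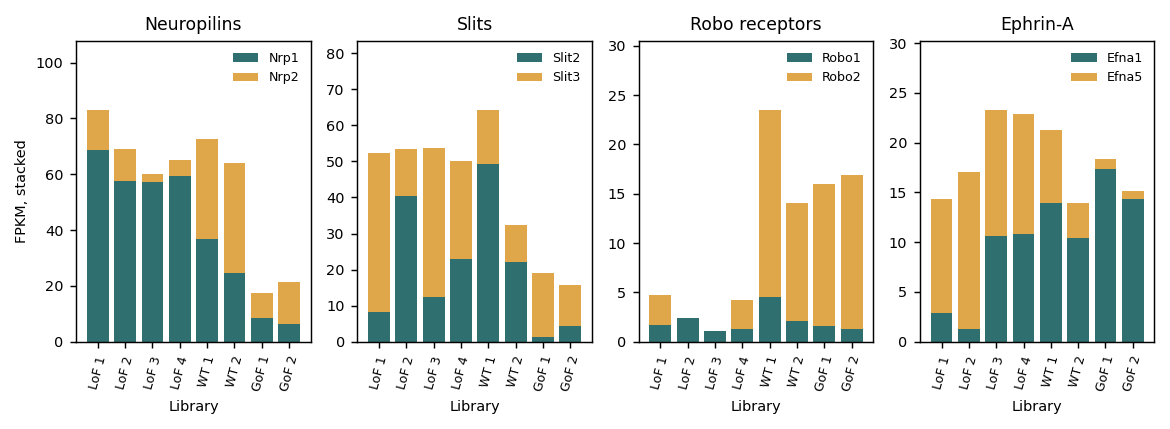
FPKM of the 2 leading members of 4 families, stacked, in each library. The neuropilin bars are of like height in LoF and WT but hold mostly Nrp1 in LoF, the Slit bars are near 50 in all 4 LoF libraries with changing shares, and Robo2 fills the WT and GoF bars.

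Netrin 1 and its receptor Unc5b were both detected. Ntn1 (ENSMUSG00000020902.12, mm10 chromosome 11, 68209364 to 68400823) was at 5.91, 3.97, 3.82 and 1.61 FPKM in LoF libraries 1 to 4, 2.31 and 1.58 in WT, and listed at 0 in both GoF libraries. The LoF and WT ranges met, and GoF was below both. Ntn1 passed the filter on low values through LoF and WT but no GoF library, so its difference is partly set by the filter. The log2 fold change of GoF against LoF was -2.19 (SE 0.50, adjusted p = 0.02, limma), and the call ended without GoF library 1 or 2 (adjusted p = 0.151 and 0.129, limma) and with sex as a covariate (adjusted p = 0.0518, limma). Ntn4, a netrin of basement membranes, was at 0.326 to 1.46 FPKM in LoF and at most 0.170 elsewhere, and did not pass (adjusted p = 0.252, limma). Unc5b (ENSMUSG00000020099.7, mm10 chromosome 10, 60762610 to 60831581), a repulsive netrin receptor, was at 17.6 and 12.4 FPKM in GoF, 11.2 and 10.2 in WT, and 7.62, 2.83, 9.53 and 4.64 in LoF. The groups did not overlap, though the difference between GoF and LoF did not pass (log2 fold change 1.25, SE 0.47, adjusted p = 0.124, limma). For Unc5c the log2 fold change was 1.43 (SE 0.59) and did not pass (adjusted p = 0.162, limma). Dcc, the attractive netrin receptor, did not reach the filter on low values.

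Levels of ligands were also set beside those of their receptors. In GoF, Sema3e was present at 3.52 ± 1.39 FPKM while its receptor Plxnd1 was at 2.92 ± 0.254, and in LoF Sema3e averaged 0.175 ± 0.350 and Plxnd1 18.7 ± 7.50 (SD, n = 2 in GoF and n = 4 in LoF). Sema3d and Nrp1 stood at 21.9 and 7.34 FPKM in GoF and at 1.34 and 60.7 in LoF. Slit2 and Robo2 stood at 2.83 and 15.04 FPKM in GoF, 21.0 and 1.49 in LoF, and 35.7 and 15.4 in WT. Only in WT did both average at least 10 FPKM. Slit3, the other Slit detected, averaged 14.5 FPKM in GoF, 31.4 in LoF and 12.6 in WT, so Robo2 in GoF also stood beside a Slit. Ntn1 was listed at 0 in GoF, where Unc5b averaged 15.01 ± 3.69 FPKM. These pairs were chosen after their values were seen and are given as a description.

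**Figure D5:**
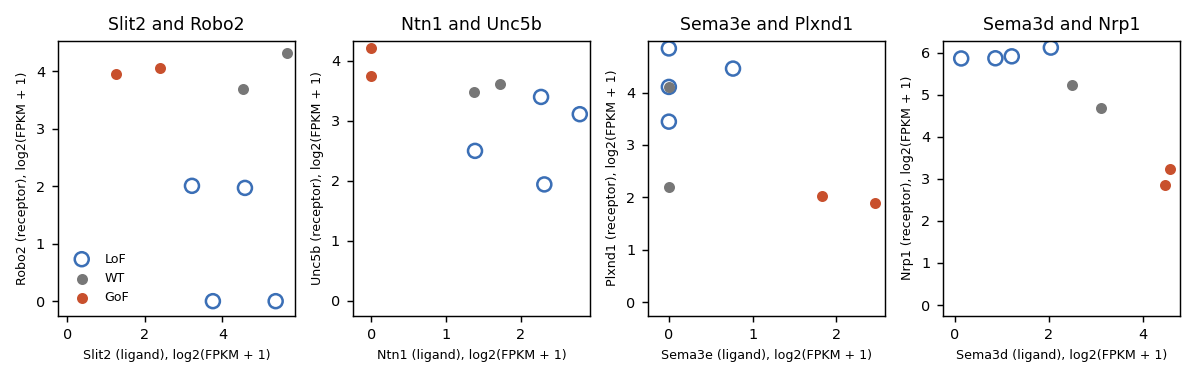
Level of a ligand (horizontal) and a receptor (vertical) in each of the 8 libraries, as log2(FPKM + 1), for 4 pairs, with LoF as open circles and WT and GoF as filled points. GoF points lie at low Slit2, Ntn1 and Nrp1 and at high Sema3d and Sema3e, and LoF points at low Robo2.

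LoF against WT addresses the loss of β-catenin, and no guidance gene passed the test there. Of 43 members 0 were called, where 1.23% of all tested genes were (limma). At an unadjusted p under 0.05 there were 11 of 43 members, against 13.4% of all tested genes. The largest differences were those of Robo2, Sema3b (log2 fold change -2.52, SE 0.63, adjusted p = 0.0978, limma) and Nrp2, all lower in each LoF library than in either WT library. Upward, Sema3f had a log2 fold change of 1.72 (SE 0.76) and overlapped with WT, while Efna5 had 1.18 (SE 0.42) without overlap (adjusted p = 0.368 and 0.242, limma). Slit3, Ephb4 and Plxnd1 followed at 1.13, 1.09 and 1.06 (SE 0.48, 0.47 and 0.57, adjusted p = 0.347, 0.351 and 0.474, limma). Of these, Ephb4 alone did not overlap with WT. Nrp1 had 0.98 (SE 0.30, adjusted p = 0.164, limma), also without overlap. In all, 12 members lay outside the WT range without overlap, 27.9% of members against 21.4% of all tested genes. Of these, 5 lay above WT and 7 below, where 11.5% and 9.88% of all tested genes did.

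GoF against WT addresses stabilised β-catenin, and 2 of 43 members, 4.65%, were lower in GoF, where 0.9% of all tested genes were lower and 2.31% were called in either direction (limma). At an unadjusted p under 0.05 there were 9 of 43 members, where 14.3% of all tested genes passed. Libraries did not overlap in 24 of 43 members, or 55.8%, against 48% of all tested genes. The 2 called genes were Nrp1, 4.19-fold lower (log2 fold change -1.91, SE 0.34, adjusted p = 0.0194, limma), and Slit2, 12.6-fold lower. Both calls ended without any 1 of the GoF or WT libraries. The adjusted p (limma) of Nrp1 was then 0.0645 and 0.0949 without GoF libraries 1 and 2, and 0.189 and 0.0657 without WT libraries 1 and 2. For Slit2 it was 0.394, 0.152, 0.332 and 0.131 in the same order, and 0.0552 and 0.0729 without LoF libraries 3 and 4. Sema3e, listed at 0 in both WT libraries, came closest among the genes with more in GoF than in WT (a log2 difference of 2.14, SE 0.48, adjusted p = 0.0519, limma). It passed the filter on low values only through the GoF libraries, so its place here is partly set by the filter. Neither Efna5 (log2 fold change -1.69, SE 0.48, adjusted p = 0.114) nor Ntn1 (log2 fold change -1.55, SE 0.58, adjusted p = 0.243) passed (limma). With sex as a covariate, 0 members were called. In this comparison the sex of the libraries and their genotype cannot be told apart without the LoF libraries.

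Genes that act beside or below guidance receptors were followed in a list of 70, of which 49 were tested. Of these, 4 were higher and 5 lower in GoF than in LoF, 18.4% against 11.6% of all tested genes (limma). The higher ones were Chn1, Farp2, Vav2 and Ngef. Vav2 and Ngef passed the filter on low values only through GoF and WT, with no LoF library at 1 FPKM. Their differences and their place in the 18.4% are thus partly set by the filter. Chn1, a Rac-inactivating protein used by Eph receptors, averaged 62.1 ± 38.8 FPKM in GoF (SD, n = 2), 37.6 ± 6.25 in WT and 4.42 ± 1.66 in LoF (SD, n = 4), and the log2 fold change of GoF against LoF was 3.43 (SE 0.44, adjusted p = 0.00103, limma). Farp2, an exchange factor bound to plexin A receptors, was 8.21-fold above LoF (log2 fold change 2.89, SE 0.52, adjusted p = 0.00634, limma), Vav2, an exchange factor downstream of Eph receptors, 11.4-fold higher (adjusted p = 0.0132, limma), and Ngef, the exchange factor of EphA4, stood at 3.79 and 2.85 FPKM in GoF and was listed at 0 in every LoF library (adjusted p = 0.0332, limma). Without GoF library 1 or 2 these last 3 calls ended (adjusted p = 0.0994 and 0.0949 for Farp2, 0.0887 and 0.0756 for Vav2, 0.232 and 0.144 for Ngef, limma), and Ngef also lost its call without any 1 LoF library (adjusted p = 0.062, 0.0662, 0.0554 and 0.0629 without libraries 1 to 4, limma).

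The lower ones were Sdc1, Plxdc2, Rasa1, Farp1 and Enah. Sdc1, a heparan sulfate proteoglycan, averaged 60.4 ± 15.6 FPKM in LoF (SD, n = 4), 46.5 ± 5.87 in WT and 3.82 ± 2.58 in GoF (SD, n = 2 each), and the log2 fold change of GoF against LoF was -3.75 (SE 0.39, adjusted p = 0.000302, limma). Plxdc2, a transmembrane protein with a plexin domain, averaged 63.99 ± 6.42, 22.8 ± 0.758 and 4.58 ± 2.83 FPKM in LoF, WT and GoF (log2 fold change -3.64, SE 0.35, adjusted p = 0.000213, limma). Every LoF library was above both WT libraries for Plxdc2, and both WT libraries above GoF. Rasa1, a Ras-inactivating protein, was 9.92-fold lower in GoF (adjusted p = 0.00264, limma), a call that ended without GoF library 1 or 2 (adjusted p = 0.064 and 0.0529). Farp1, an exchange factor of the same family as Farp2, was also lower (adjusted p = 0.0219, limma), though not without GoF library 1 (adjusted p = 0.175) or with sex as a covariate (adjusted p = 0.0787, limma). So was Enah, a regulator of actin filaments (adjusted p = 0.0421, limma), whose call ended in 15 of 17 alternatives. Among them, the adjusted p (limma) of Enah was 0.0824, 0.0876 and 0.059 without LoF libraries 1 to 3, 0.387 without GoF library 1, and 0.0672 and 0.0681 without WT libraries 1 and 2. It was 0.0662 under median ratio scaling and 0.071 under quantile normalization (limma).

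Against WT, few of these partner genes passed. In LoF, Chn1 and Tiam1 were lower, 2 of 49 or 4.08% where 0.667% of all tested genes were lower, and in GoF Sdc1, Tiam1 and Plxdc2 were lower, 3 of 49 or 6.12% where 0.9% were lower. Tiam1, a Rac exchange factor recruited by ephrins and Eph receptors, was at 7.84 and 13.6 FPKM in WT, at 0 in LoF except for 0.792 in library 2, and at 0 and 0.0716 in GoF. It passed the filter on low values only through the WT libraries, so its differences and its place in both counts are partly set by the filter. Apart from it, the lower genes were Chn1 in LoF and Sdc1 and Plxdc2 in GoF. The log2 fold change of LoF against WT was -3.30 (SE 0.46, adjusted p = 0.0145, limma). That of GoF against WT was -3.46 (SE 0.53, adjusted p = 0.00891, limma), and these are 2 comparisons that share the WT libraries. The Tiam1 calls ended without WT library 1 (adjusted p = 0.0505 and 0.0515, limma) or 2 (adjusted p = 0.164 and 0.0704, limma). They also ended without GoF library 1 (adjusted p = 0.0681 and 0.0749, limma) or 2 (adjusted p = 0.0696 and 0.0597, limma). The Chn1 call in LoF ended without WT library 1 or 2 (adjusted p = 0.189 and 0.197, limma), without GoF library 1 or 2 (adjusted p = 0.0681 and 0.0696, limma) and without LoF library 2 (adjusted p = 0.0555). In GoF, Plxdc2 lost its call without GoF library 2 or either WT library (adjusted p = 0.0742, 0.179 and 0.124, limma), and Sdc1 without WT library 1 (adjusted p = 0.0716, limma).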

How the data were processed

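RNA from pools of cells was amplified with Smart-seq2, per the labels' protocols. The authors deposited 1 table of FPKM per gene and library. Per the submitters' processing notes, which give no roles, HISAT2, SAMtools 0.1.18, Cufflinks and HTSeq were used with mm10; the annotation release is not given in the sources used here. An FPKM is relative to the library total, so a rise of abundant genes lowers the rest. Strand is not kept by Smart-seq2, and of the named members Efna3, Ephb4, Plxna1 and Plxnb1 share exon positions with an opposite-strand gene (all at 0.0424 FPKM or less on average).

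Of 48555 lines, 65 repeated a gene ID with the same values (Epha5 among them), leaving 48490 genes. The 12888 genes that reached 1 FPKM in 2 or more of the 8 libraries were fitted as log2(FPKM + 1) with limma 3.58.1 in R 4.3.3, all 3 groups together, moderated with a mean-variance trend. This scale compresses fold changes at low FPKM. Depth is unknown, so intervals for counting error are not given. Folds are ratios of group mean FPKM. The model code was tested on simulated data.

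The members and lists were chosen with earlier results of these data known. Named members are those called in any comparison, those with a group mean of at least 10 FPKM, and a fixed set of well-known genes; Plxna2, Unc5c and Farp1 were named after their values were seen. Of the partner list, the 8 largest called changes per comparison are named. Alternatives were a pseudocount of 0.1, no filter, quantile normalization, median ratio scaling, a fit of only the 2 groups at hand, no trend, the replicate number as a block and leaving out each library; a sex covariate and leaving out the LoF libraries with Y-linked transcripts were added after seeing the data.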

Additional observations from a re-analysis of the deposited data

Results flagged for a closer look

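In 4 named guidance genes and 2 partner genes 1 LoF library lay far from the other 3. Plxna1 was at 4.57 FPKM in LoF library 3, the library with endothelial transcripts, and at 0.737 to 1.39 in the others. Sema4d was at 2.09 FPKM in LoF library 2 and at 0.917 to 1.04 in the others. Sema3e was at 0.700 FPKM in LoF library 2 and Efna3 at 0.524 in LoF library 4, each at 0 in the other 3. Among partner genes, Chn1 was at 6.90 FPKM in LoF library 1 and at 3.41 to 3.85 in the others, and Tiam1 was at 0.792 in LoF library 2 and at 0 in the others. Chance flags about 1 in 20 groups where values vary continuously, and 41 were examined. A gene at 0 in 3 LoF libraries and above 0 in 1 is always flagged. That rate therefore does not apply to Sema3e, Efna3 and Tiam1.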

How the results depend on the processing

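Of 43 guidance genes, the 11 called in GoF against LoF were 7 with no filter, 6 with sex as a covariate, 6 without the LoF libraries with Y-linked transcripts, and 2 to 10 when 1 library was left out. The 2 called in GoF against WT were 1 with a pseudocount of 0.1, 0 without a mean-variance trend, with only the groups compared, sex as a covariate or no Y-linked LoF libraries, and 0 to 2 when 1 library was left out. In LoF against WT the count was 0 under every alternative. Partner genes called in GoF against LoF, 9, were 5 without the LoF libraries with Y-linked transcripts and 3 to 9 with 1 library left out. In LoF against WT, 2 became 1 with a pseudocount of 0.1 or no filter, 0 with only the groups compared, sex as a covariate or no Y-linked LoF libraries, and 0 to 2 with 1 library left out. In GoF against WT, 3 became 0 with only the groups compared or sex as a covariate, and 0 to 3 with 1 library left out. The cause of these changes was not tested, apart from fewer libraries. Where 1 library was left of a group, it was assumed to vary like the others.

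Libraries with the same replicate number did not deviate together (correlations of deviations across genes between -0.0069 and 0.030). The labels do not say what the number stands for, and whether such libraries shared a litter or a day was not tested. With the replicate block, guidance calls were 5 in GoF against LoF, 0 in GoF against WT and 0 in LoF against WT, and partner calls 6, 0 and 0. Without filter, Sema3e in GoF against WT passed (adjusted p = 0.0495), as it did with median ratio scaling and quantile normalization (adjusted p = 0.0413 and 0.0337, limma). With the replicate block Efna1 passed in GoF against LoF (adjusted p = 0.0337, limma). The LoF libraries then compared, 1 and 2, were its low pair, at 2.85 and 1.32 FPKM against 10.6 and 10.8 in libraries 3 and 4. Calls that remained under all 17 alternatives were those of Nrp1, Efna5, Chn1, Plxdc2 and Sdc1 in GoF against LoF, and no called guidance or partner gene, 11 and 9 in that comparison, changed direction under any of them. Median ratio scaling moved the median of all genes in that comparison from -0.17 to -0.05.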
